A study of Mus musculus with 10 samples.

Results

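Grafted mouse oligo-astrocytomas were compared with cultured neurospheres in 6 of the 10 arrays of the series. The grafted tumours (n = 3, numbered 4, 5 and 6) grew after neurospheres had received a Cre-expressing adenovirus (AdCre) in culture and were then transplanted, and their RNA came from tumour tissue dissected from the brain. The neurospheres (n = 3) were pelleted at passage 3 after transduction, 2 of them with AdCre (numbers 1 and 2) and 1 with an adenovirus carrying green fluorescent protein (AdGFP, number 1). All 6 carry the homozygous floxed genotype for p53 and Rb (Trp53 and Rb1 flanked by loxP sites, so that Cre can delete them) on a mixed background of C57, FVB and, for the most part, 129 Ola. The arrays of each group were set by their labels and not by any measured value. The comparison and the gene lists below, however, were chosen with earlier results of these data known. The other 4 arrays were 3 primitive neuroectodermal tumours (PNET) and 1 oligo-astrocytoma from a brain whose ventricles received AdCre directly. They entered the model as groups of their own. The 3 PNET share in its estimate of spread, to which the single injected tumour adds nothing. The labels do not give the host animals, their age, the time of tumour growth, the culture medium or the passage at which spheres were grafted, nor do they tie a graft to one of the measured cultures. Nothing in the labels says that replicates came from separate animals or cultures, and the p-values therefore cover only the spread among the arrays at hand. The AdGFP sphere is a single array with unrecombined alleles by design, so the AdCre spheres alone are given beside the pooled spheres.

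Neurospheres are free-floating clusters of neural stem and progenitor cells, in this series from the subventricular zone, the stem cell niche beside the lateral ventricle. Oligo-astrocytoma is a glioma with features of both oligodendrocyte and astrocyte lineages. Oligodendrocyte precursors are recognised by the platelet-derived growth factor receptor Pdgfra and the transcription factors Olig2 and Sox10, and become myelinating cells that make Mbp, Mag and Mog. A tumour dissected from brain also holds microglia, vessels and connective tissue of the host, which a culture of neural cells lacks.

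Values are log2 expression summaries of 23238 transcript clusters, each a group of array probe sets that stands for about a gene; 14807 carry 1 gene name and are called named genes below. Changes are grafts minus spheres on the log2 scale, ± SE, tested with limma, and a gene is called where the Benjamini-Hochberg adjusted p over all transcript clusters is below 0.05. No detection calls were used, and the number of arrays limits the precision. Correlations over transcript clusters were 0.961 to 0.967 between grafts, 0.971 to 0.975 between spheres and 0.893 to 0.918 between a graft and a sphere. The sphere arrays had wider distributions, with SDs of 2.10 to 2.13 in the grafts, against 2.33 to 2.37 in the spheres, while the medians of all 6 arrays lay between 5.93 and 6.06. Over named genes the median change was -0.32 as deposited, -0.25 after centring each array on its median and -0.20 after quantile normalization, so changes of lists below are to be read against these values. As deposited, 10.6% of all transcript clusters rose and 24.3% fell, and of the named genes 637 (4.30%) rose and 4493 (30.3%) fell. Without AdCre sphere 2 the rises numbered 396. The 3 grafts did not overlap the 3 spheres for 1184 named genes higher and 6678 lower in the grafts, of 14807. A lack of overlap is therefore common and is given below as a description. After quantile normalization 1183 (7.99%) rose and 2627 (17.7%) fell, so the share of rises among the calls depends on the scaling. Of the genes called as deposited, 556 of the rises (87.3%) and 2409 of the falls (53.6%) were called in the same direction after quantile normalization, and these made up 47.0% of its rises and 91.7% of its falls. Against the AdCre spheres alone, 462 named genes (3.12%) rose and 3966 (26.8%) fell, and after quantile normalization 825 (5.57%) and 1951 (13.2%). Counts of list members under each setting are to be read against these shares.

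**Figure D1:**
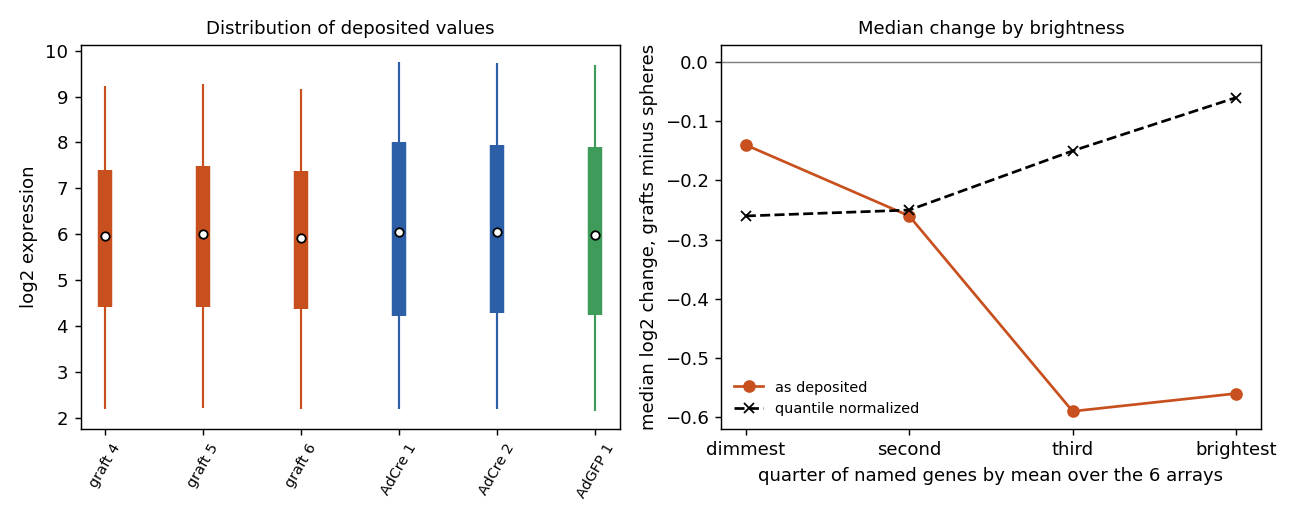
Left, the deposited log2 values of each array, with the median (white point), the quartiles (bar) and the 5th and 95th percentiles (line); the upper quartile is at most 7.49 in grafts and at least 7.90 in spheres. Right, the median log2 change of named genes over 4 equal classes of brightness, which was -0.14 in the dimmest class and -0.56 in the brightest as deposited, and -0.26 and -0.06 after quantile normalization.

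The scaling mattered by brightness. Among the dimmest of 4 equal classes of named genes the median change was -0.14 as deposited and -0.26 after quantile normalization, and among the brightest -0.56 and -0.06. In the brightest class 159 genes rose and 1634 fell as deposited, and 558 and 692 after quantile normalization, while in the dimmest class 90 rose and 232 fell as deposited, and 60 and 414 after it. Among the arrays, AdCre sphere 1 stood apart from the other spheres in glial genes, with a median over the precursor list of 8.78, against 7.69 in AdCre sphere 2 and 8.16 in the AdGFP sphere. Where counts of a list are given in 1 direction, limma called no member in the other, and at an unadjusted p under 0.05 there was none either except 1 lower MHC class II gene. Genes named below as risen or fallen passed in each of the 6 fits that left out 1 of the 6 arrays, except where an array is named. As deposited, the fit without the AdGFP sphere gives the same result as the AdCre spheres alone, so the 2 are a single check.

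Pdgfra (transcript cluster 6931740, chromosome 5), the receptor for platelet-derived growth factor on oligodendrocyte precursors, read 10.92, 10.97 and 11.29 in the grafts, against 7.86 and 6.66 in the AdCre spheres and 5.98 in the AdGFP sphere. The grafts were tightly grouped and all above the spheres, which were more spread. The change was 4.22 ± 0.39 (limma adjusted p = 0.000181), an 18.7-fold higher level, and was 3.80 ± 0.33 against AdCre spheres alone and 4.54 ± 0.32 after quantile normalization. Ctss (6899683, chromosome 3), the lysosomal protease cathepsin S of microglia and macrophages, read 10.34, 8.78 and 8.18 in the grafts, against 3.70 and 3.92 in the AdCre spheres and 3.86 in the AdGFP sphere. Graft 4 was the highest of the grafts, and the sphere values, under the lower quartile of those arrays, may be bounded by background. Its change was 5.27 ± 0.54 (adjusted p = 0.000271), with 5.29 against AdCre spheres and 5.26 after quantile normalization.

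Adm (6963442, chromosome 7), which encodes the vasodilator peptide adrenomedullin and is induced by low oxygen, read 4.46, 5.16 and 4.34 in the grafts, against 9.95 and 10.48 in the AdCre spheres and 10.33 in the AdGFP sphere. No graft came near a sphere. Means were 4.65 in the grafts and 10.25 in the spheres (SE of the log2 change 0.28, limma adjusted p = 2.75e-05), and since the graft values lie near the lower quartile of their arrays, background may limit the size of the change. The change was -5.56 against AdCre spheres and -5.33 after quantile normalization. Egfr (6778972, chromosome 11), the epidermal growth factor receptor of neural progenitors, read 5.67, 6.92 and 6.89 in the grafts, against 10.27 and 10.40 in the AdCre spheres and 10.54 in the AdGFP sphere. Again the groups were far apart, with graft 4 the lowest. Its change was -3.91 ± 0.33 (adjusted p = 0.000131), with -3.84 and -3.54 under the other 2 settings. In the injected oligo-astrocytoma, which grew without a culture step, Pdgfra read 10.85, Ctss 11.20, Adm 4.74 and Egfr 6.58.

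**Figure D2:**
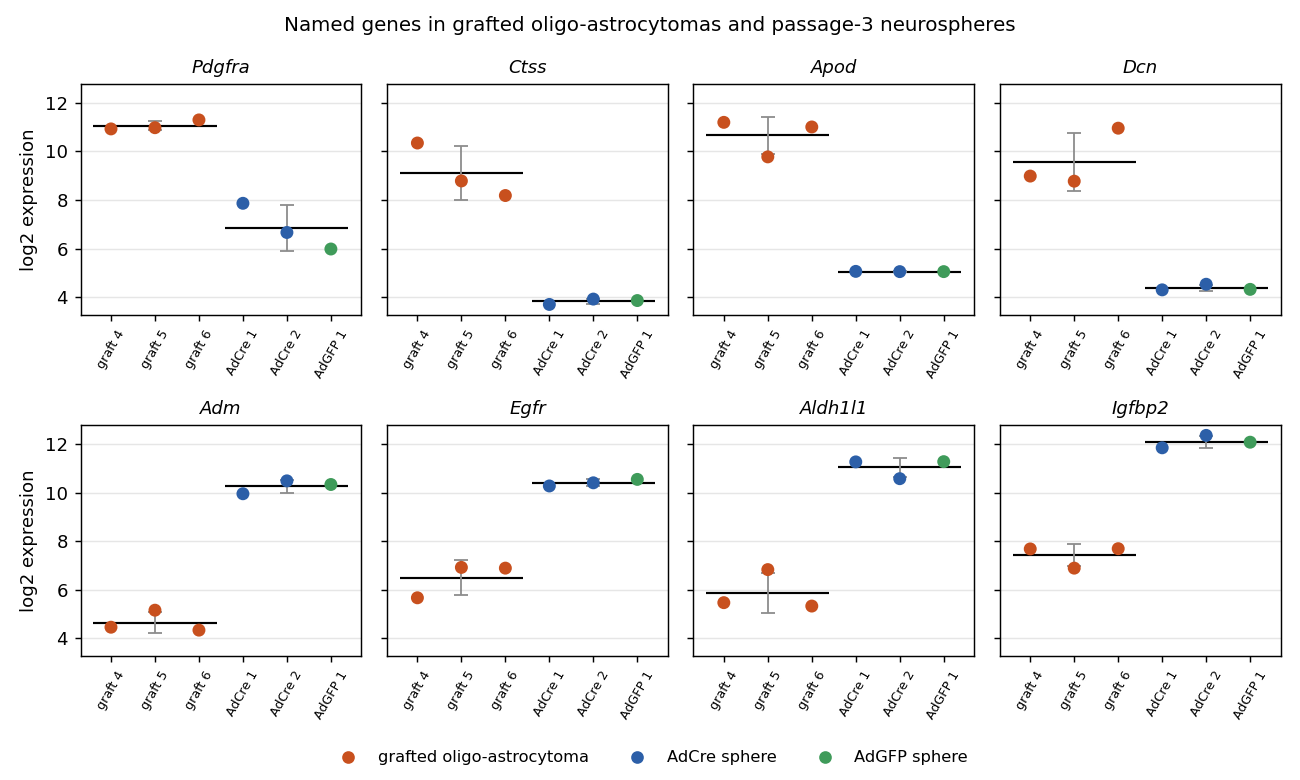
Log2 expression of 8 genes on each array, with grafts 4, 5 and 6 at the left of each panel and AdCre spheres 1 and 2 and AdGFP sphere 1 at the right; black lines are means of 3 arrays and grey bars ± 1 SD. Pdgfra, Ctss, Apod and Dcn lie higher in all 3 grafts than in any sphere, and Adm, Egfr, Aldh1l1 and Igfbp2 lower.

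The 12 largest rises and 12 largest falls all passed against AdCre spheres alone and after quantile normalization, as the rule for naming them required, and had changes of at least 3.55. Of the rises, 5 are genes of the oligodendrocyte lineage beside Pdgfra. They are Apod, a lipid carrier of myelinating glia and connective tissue (mean 10.65 ± 0.77 in grafts and 5.05 ± 0.01 in spheres, SD, n = 3 each), Enpp6, a choline phosphodiesterase of newly formed oligodendrocytes (3.95 ± 0.60), Gjc3, a gap junction protein of oligodendrocytes (3.82 ± 0.77), Bcas1, a marker of early myelinating cells (3.58 ± 0.50), and Erbb3, a neuregulin receptor (3.55 ± 0.68). Apod read between 9.77 and 11.19 in the grafts, with graft 5 lowest, against 5.06 and 5.05 in the AdCre spheres and 5.05 in the AdGFP sphere. Slc5a7, the high-affinity choline transporter, rose by 4.15 ± 0.35 and read 8.13, 8.93 and 8.38 in the grafts, against 4.67 and 4.16 in the AdCre spheres and 4.16 in the AdGFP sphere. Both genes separated the groups by several log2 units, although the grafts differed among themselves in Apod. The matrix proteoglycans Dcn (5.19 ± 0.88) and Bgn (3.98 ± 0.34), the complement gene C1qb (adjusted p = 0.000296) and the secreted guidance protein Sema3d (3.55 ± 0.50) completed the rises with Ctss.

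Among the largest falls, Aldh1l1, a folate enzyme used as an astrocyte marker, read 5.47, 6.83 and 5.33 in the grafts, against 11.26 and 10.57 in the AdCre spheres and 11.27 in the AdGFP sphere. Its change was -5.16 ± 0.38 (limma adjusted p = 8.96e-05). Igfbp2, which binds insulin-like growth factors, read 7.68, 6.89 and 7.69 in the grafts, against 11.84 and 12.35 in the AdCre spheres and 12.07 in the AdGFP sphere, a change of -4.67 ± 0.32. In both, every sphere exceeded every graft by more than 3 log2 units. Nrn1, the neurite outgrowth protein neuritin, changed by -5.03 ± 0.92 and Car2, a carbonic anhydrase, by -4.31 ± 0.69, both with graft 4 nearest to the spheres (6.98 and 8.19). The lipid desaturase Scd1 (-4.18 ± 0.64), the sulfotransferase Chst7 (-4.17 ± 0.20), Fam181b (-4.17 ± 0.32), the potassium channel partner Kcnip1 (-4.14 ± 0.34), the peptide receptor partner Ramp1 (-3.97 ± 0.28), Zcchc12 (-3.94 ± 0.52) and the epoxide hydrolase Ephx1 (-3.94 ± 0.48) completed them with Adm. Background may limit the size of a change where the mean of the dimmer group lay under the mean lower quartile of its arrays, which held in the spheres for Ctss and, among genes named below, Emcn, C3ar1, Aldh1a2 and Alas2, and in the grafts for Chst7 and Kcnip1 and, below, Fdps, Klf1 and Slbp. Single grafts also read under it for Adm, Nrn1, Zcchc12 and Emx2, and single spheres for Enpp6, Slc5a7, C1qa, C1qb, Cd53, H2-Aa, Luzp2 and Bmp4.

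**Figure D3:**
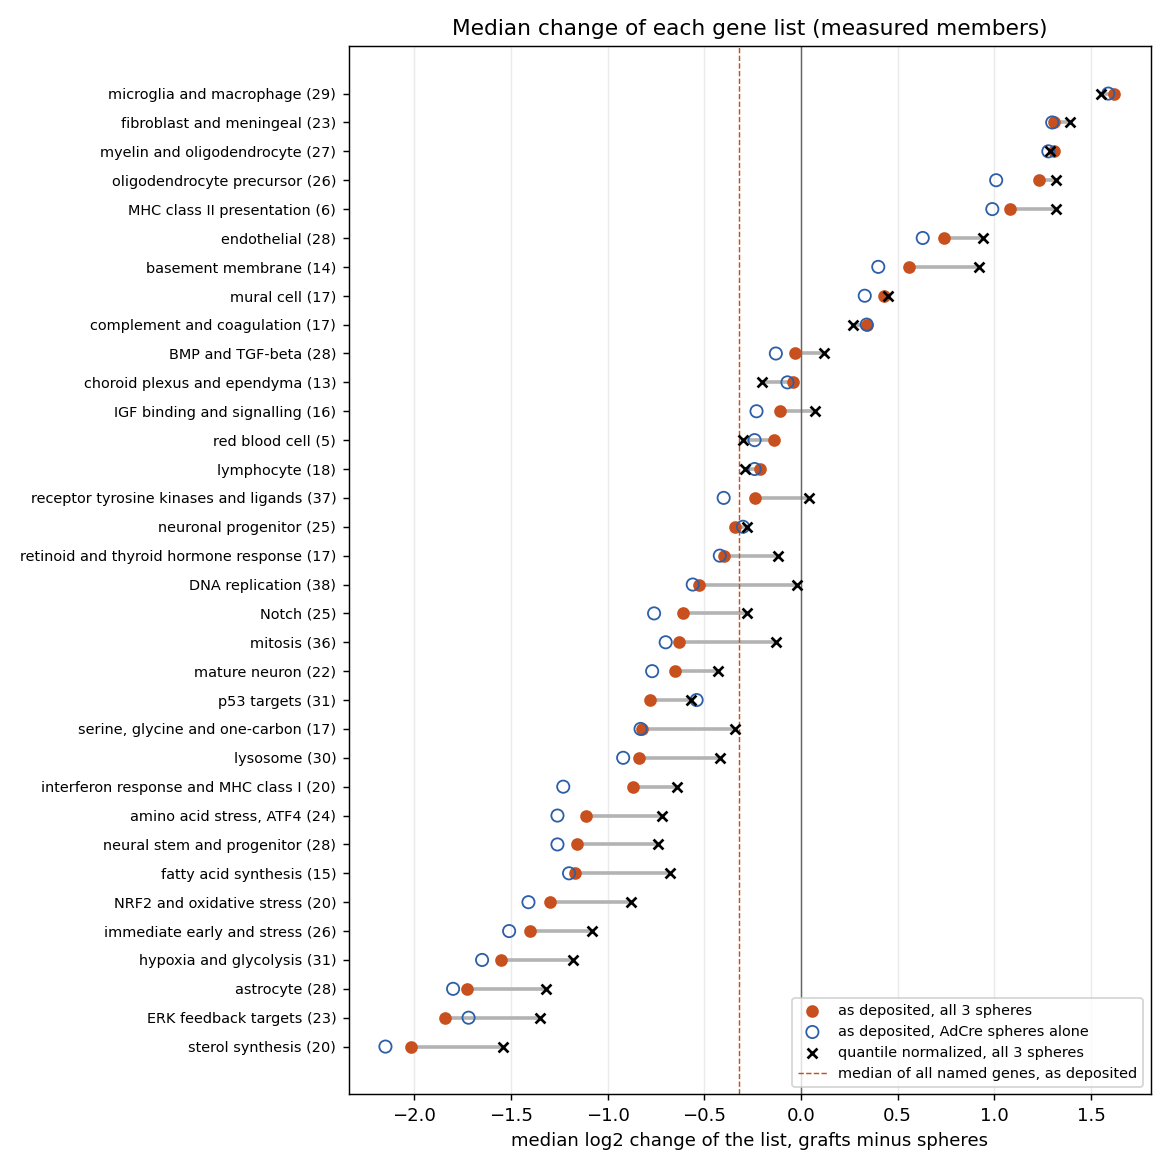
Median log2 change, grafts minus spheres, of the measured members of 34 gene lists (number of measured members in brackets), as deposited against all 3 spheres (filled), against the AdCre spheres alone (open) and after quantile normalization (crosses), with the median of all named genes (-0.32) dashed. Microglia, connective tissue, myelin and precursor lists lie highest, at 1.62, 1.31, 1.31 and 1.23, and sterol synthesis lowest, at -2.02.

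Oligodendrocyte precursor genes divided. Of 26 measured, 11 rose and 5 fell, where 4.30% and 30.3% of all named genes did. Against AdCre spheres alone 10 rose and 3 fell (3.12% and 26.8% of named genes), and after quantile normalization 12 and 3 (7.99% and 17.7%). The list's median change was 1.23, against -0.32 over named genes. Since these are bulk samples, more cells of a type and more RNA per cell cannot be told apart, here or in any list below.

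The transcription factor Sox10, which switches on myelin genes, read 9.60, 9.75 and 9.12 in the grafts, against 7.43 and 6.30 in the AdCre spheres and 5.40 in the AdGFP sphere, a change of 3.11 ± 0.43 (limma adjusted p = 0.000872). Bcas1 read 10.32, 10.13 and 10.02 in the grafts, against 8.01 and 5.84 in the AdCre spheres and 5.89 in the AdGFP sphere. In both genes AdCre sphere 1 was the sphere nearest to the grafts, without overlap. Gpr17, a receptor of precursors about to differentiate, read 10.13, 10.49 and 10.86 in the grafts, against 9.54 and 5.67 in the AdCre spheres and 6.45 in the AdGFP sphere. Here AdCre sphere 1 came close to the lowest graft, and the change of 3.27 ± 0.80 had an adjusted p of 0.012. Sox6 (1.55 ± 0.19), a transcription factor of precursors, and the matrix genes Vcan (3.09 ± 0.71) and Tnr (2.03 ± 0.50) rose as well. Luzp2 rose by 3.81 ± 1.05 as deposited, but its AdCre sphere 1 read 8.50, against 9.21, 9.23 and 9.80 in the grafts. The call was lost without graft 6, AdCre sphere 2 or the AdGFP sphere (adjusted p = 0.0580, 0.0671 and 0.0549).

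Olig1, a transcription factor of the lineage, was lower in the grafts. It read 9.85, 9.60 and 10.11 in the grafts, against 11.08 and 10.91 in the AdCre spheres and 11.66 in the AdGFP sphere, and fell with a change of -1.36 ± 0.27, or -0.99 after quantile normalization. Olig2, needed for the oligodendrocyte lineage, read 8.88, 9.19 and 9.46 in the grafts, against 9.81 and 9.75 in the AdCre spheres and 10.31 in the AdGFP sphere. The groups did not overlap, but the fall of 0.78 ± 0.22 (adjusted p = 0.0227) was not called after quantile normalization (-0.32, adjusted p = 0.362), against AdCre spheres alone (-0.61, adjusted p = 0.0731), or without graft 4 or graft 5 (adjusted p = 0.0735 and 0.0558). Cspg4, the NG2 proteoglycan of precursors, gave -0.53 ± 0.27 (adjusted p = 0.161), and Bcan, another brain proteoglycan, -0.25 ± 0.43. Cspg5 (-2.45 ± 0.31) and Nxph1 (-1.75 ± 0.22) fell. Without graft 5, as against AdCre spheres alone, 3 falls were called in place of 5. The defining precursor markers thus divided. Pdgfra and Sox10 were higher in the grafts, Cspg4 was not called, and Olig2 was lower in every graft than in any sphere as deposited. Olig2 was at a level of 8.88 or more in all 6 arrays.

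**Figure D4:**
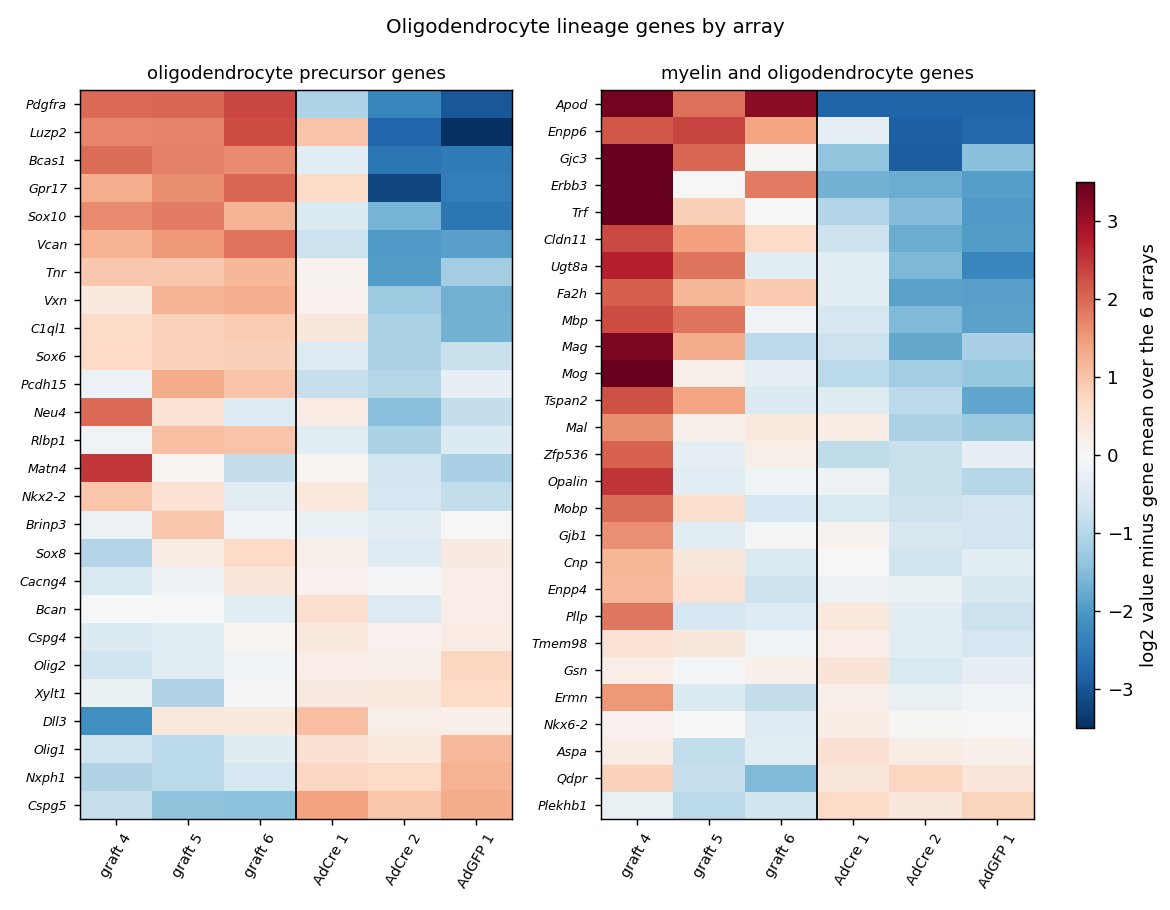
Each row is a gene and each column an array, with grafts left of the line and spheres right of it; colour is the log2 value minus the gene's mean over the 6 arrays, with values beyond ± 3.5 drawn at the end of the scale. Pdgfra, Bcas1 and Sox10 are high in all 3 grafts, while Gjc3, Mbp and Ugt8a are highest in graft 4; AdCre sphere 1 is the highest of the spheres for Sox10, Gpr17 and Bcas1.

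Of 27 myelin and oligodendrocyte genes, 12 rose (44.4%, against 4.30% of named genes) and 1 fell, with a median of 1.31. The counts were 8 and 1 against AdCre spheres alone and 13 and 1 after quantile normalization. Cldn11, the tight junction protein of myelin, read 11.13, 10.27 and 9.51 in the grafts, against 8.11 and 7.10 in the AdCre spheres and 6.87 in the AdGFP sphere, a change of 2.94 ± 0.42 (limma adjusted p = 0.00105). Mbp, myelin basic protein, read 10.39, 9.96 and 7.97 in the grafts, against 7.51 and 6.55 in the AdCre spheres and 6.22 in the AdGFP sphere, a change of 2.68 ± 0.57. Both genes were highest in graft 4, lowest among grafts in graft 6, and above all spheres. Fa2h, which makes the hydroxylated fatty acids of myelin lipids, rose by 2.77 ± 0.44 and the iron carrier Trf by 3.02 ± 0.76. Plekhb1 was the 1 fall (-1.25 ± 0.29), and without graft 4 there were 3 falls.

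Several genes of mature myelin were highest in graft 4 and lowest among the grafts in graft 6. Mog, on the outermost myelin layer, read 10.06 in graft 4 and 6.65 and 6.08 in grafts 5 and 6, against 5.50 and 5.21 in the AdCre spheres and 5.11 in the AdGFP sphere. Its change of 2.32 ± 0.84 was not called (adjusted p = 0.057). Mag, which holds myelin to the axon, read 9.69, 7.73 and 5.52 in the grafts, against 5.68 and 4.62 in the AdCre spheres and 5.30 in the AdGFP sphere, so graft 6 lay within the range of the spheres. Its change of 2.45 ± 0.83 had an adjusted p of 0.0455 and kept the call in 1 fit, without graft 6, with adjusted p from 0.0703 without AdCre sphere 1 to 0.128 without AdCre sphere 2 in the rest. Ugt8a, which makes galactosylceramide, changed by 2.81 ± 0.73, with an adjusted p of 0.0546 without graft 5 and 0.0515 without the AdGFP sphere. The tetraspanin Tspan2 changed by 2.10 ± 0.67, a call lost without graft 4, graft 5, AdCre sphere 2 or the AdGFP sphere (adjusted p = 0.0733 to 0.113). Over the list the median level was 9.34 in graft 4 and 7.73 and 7.72 in grafts 5 and 6, against 6.55 and 5.21 in the AdCre spheres and 6.02 in the AdGFP sphere.

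Of 28 astrocyte genes, 16 were lower in the grafts (57.1%, against 30.3% of named genes) and 1 higher, with a median of -1.73. The counts were 13 and 1 after quantile normalization, with a median of -1.32, and 15 and 1 against AdCre spheres alone. Slc6a11, a GABA transporter, read 7.37, 6.59 and 6.67 in the grafts, against 11.28 and 9.96 in the AdCre spheres and 10.47 in the AdGFP sphere, a change of -3.69 ± 0.34 (limma adjusted p = 0.00018). Acsbg1, which activates long fatty acids, changed by -3.78 ± 0.31, the phospholipase Pla2g7 by -3.86 ± 0.26, the cystathionine synthase Cbs by -3.29 ± 0.34 and the fibroblast growth factor receptor Fgfr3 by -2.64 ± 0.21. Sox9, a transcription factor of astrocytes and stem cells, read 6.84, 7.63 and 7.65 in the grafts, against 10.02 and 9.27 in the AdCre spheres and 9.09 in the AdGFP sphere. In each of these genes the groups stood apart.

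Not all astrocyte genes moved so. Gfap, the intermediate filament that defines the type in pathology, read 8.55, 9.07 and 9.42 in the grafts, against 10.07 and 7.75 in the AdCre spheres and 6.77 in the AdGFP sphere. The spheres spanned the grafts on both sides, and the change was 0.82 ± 0.82 (adjusted p = 0.472). The water channel Aqp4 gave -0.55 ± 0.70 (adjusted p = 0.577) and the glutamine synthetase Glul 0.41 ± 0.58. S100b, a calcium binding protein shared with oligodendrocytes, was the 1 rise (1.80 ± 0.39). Gja1, the gap junction protein connexin 43, fell by 2.08 ± 0.70, with adjusted p of 0.126, 0.0979 and 0.0562 without grafts 4, 5 and 6 and 0.119 after quantile normalization. AdCre sphere 1 held the highest sphere value of Gfap, Aqp4, Gja1 (10.99) and Sox9.

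Of 28 neural stem and progenitor genes, 15 fell (53.6%, against 30.3% of named genes), with a median of -1.16. The counts were the same against AdCre spheres alone, with 12 falls after quantile normalization and 2 rises in the fit without AdCre sphere 1. Emx2, a homeobox gene of the dorsal forebrain, read 4.68, 3.96 and 4.84 in the grafts, against 8.08 and 7.87 in the AdCre spheres and 7.20 in the AdGFP sphere, a change of -3.22 ± 0.29 (limma adjusted p = 0.000149). Lfng, which modifies Notch receptors, read 7.25, 7.33 and 7.17 in the grafts, against 10.27 and 9.94 in the AdCre spheres and 10.59 in the AdGFP sphere, a change of -3.02 ± 0.19. Both genes gave narrow groups with a gap of over 2 log2 units. Gas1 (-2.48 ± 0.18), the homeobox gene Lhx2 (-2.30 ± 0.30), the stem cell receptor Nr2e1 (-2.19 ± 0.37), the filament nestin, Nes (-2.08 ± 0.35), and the lipid binding protein Fabp7 (-1.67 ± 0.27) fell as well. Sox2, a core stem cell factor, read 9.77, 10.28 and 10.21 in the grafts, against 11.19 and 11.33 in the AdCre spheres and 10.96 in the AdGFP sphere. Its fall of 1.07 ± 0.26 was not called after quantile normalization (-0.71, adjusted p = 0.0783), and Sox2 stayed far above the array medians in both groups. Bmi1 (0.10 ± 0.32) and Notch1 (-0.05 ± 0.35) were not called.

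Receptor tyrosine kinases and their ligands, which pass growth factor signals into the cell, included genes called in both directions. Of 37 measured, 8 rose (21.6%, where 4.30% of named genes did) and 10 fell (27.0%, where 30.3% did), with a median of -0.24, near the -0.32 of named genes (9 and 7 after quantile normalization, and 6 and 9 against AdCre spheres alone). Erbb3 read 10.31, 6.84 and 8.62 in the grafts, against 5.15 and 5.08 in the AdCre spheres and 4.88 in the AdGFP sphere, and its ligand gene Nrg1 rose by 1.32 ± 0.21. Kit, the stem cell factor receptor, read 9.57, 11.56 and 9.96 in the grafts, against 7.60 and 7.13 in the AdCre spheres and 7.20 in the AdGFP sphere, a change of 3.06 ± 0.43 (limma adjusted p = 0.00101). Graft 4 was highest for Erbb3 and graft 5 for Kit, and no graft overlapped a sphere in either. Of the ligands, Igf1 rose by 0.76 ± 0.16, while Pdgfa, a ligand of Pdgfra, gave -0.10 ± 0.26 (adjusted p = 0.788). The ligand Pdgfb was called higher as deposited. That call was lost without graft 4, graft 5, AdCre sphere 2 or the AdGFP sphere (limma adjusted p = 0.0600 to 0.0983). Pdgfrb, the receptor of pericytes, rose by 1.70 ± 0.40. The ligand Tgfa rose by 1.14 ± 0.30, with adjusted p of 0.0572 without graft 4, 0.0610 without AdCre sphere 2 and 0.0556 without the AdGFP sphere.

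Egfr and Fgfr3 led the falls among receptors. Fgf1, an acidic fibroblast growth factor, read 5.82, 6.20 and 5.64 in the grafts, against 9.21 and 9.03 in the AdCre spheres and 9.36 in the AdGFP sphere, a change of -3.31 ± 0.20 (limma adjusted p = 5.06e-05). Hbegf, a ligand of Egfr, changed by -2.14 ± 0.33 and Epha5, an ephrin receptor, by -2.29 ± 0.35. In each of these the groups did not overlap. Erbb2, the partner of Erbb3, fell by 1.05 ± 0.30, but the call was lost without graft 5, graft 6, AdCre sphere 1 or AdCre sphere 2 (adjusted p = 0.0558 to 0.0805). Fgfr1 fell by 1.16 ± 0.33, a call kept without graft 4 and lost without any other array (adjusted p = 0.0511 to 0.0771) and after quantile normalization (-0.64, adjusted p = 0.171). Bdnf (-0.93 ± 0.17) fell, and Ntrk2, its receptor, was not called (-1.48 ± 0.66, adjusted p = 0.111).

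Targets and feedback inhibitors of ERK signalling, the kinase cascade downstream of these receptors, fell for 18 of 23 members (78.3%, against 30.3% of named genes). They rose for 1 member, and the median was -1.84. The counts were 13 and 1 after quantile normalization, with a median of -1.35, and 16 and 1 against AdCre spheres alone. Spry4, a feedback inhibitor, read 6.97, 5.66 and 6.15 in the grafts, against 8.93 and 9.26 in the AdCre spheres and 9.79 in the AdGFP sphere, a change of -3.06 ± 0.37 (limma adjusted p = 0.000529). Dusp6, the phosphatase that switches ERK off, read 8.74, 6.75 and 7.35 in the grafts, against 9.49 and 9.69 in the AdCre spheres and 10.35 in the AdGFP sphere, a change of -2.23 ± 0.44. Graft 4 was the highest graft in both genes and remained below the spheres. Dusp4 (-2.76 ± 0.37), Spry2 (-2.68 ± 0.35), the ETS factors Etv4 (-2.44 ± 0.27) and Etv5 (-1.94 ± 0.39) and the inhibitor Spred2 (-1.84 ± 0.41) fell. Myc was the 1 rise, by 0.92 ± 0.29, a call lost without graft 4, graft 6, AdCre sphere 1 or AdCre sphere 2 (adjusted p = 0.0769 to 0.112). Ccnd1, cyclin D1, fell by 2.28 ± 0.63 but read 10.57, 7.67 and 10.03 in the grafts, against 11.14 and 11.90 in the AdCre spheres and 12.07 in the AdGFP sphere, and its adjusted p was 0.0601 without AdCre sphere 2, 0.0598 without the AdGFP sphere and 0.0543 after quantile normalization.

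Immediate early and stress genes respond within minutes to growth factors or stress. Of 26, 22 fell (84.6%, against 30.3% of named genes) and 2 rose, with a median of -1.40. The counts were 17 and 2 after quantile normalization and 21 and 2 against AdCre spheres alone. Fos read 6.68, 5.34 and 4.71 in the grafts, against 8.94 and 7.78 in the AdCre spheres and 8.47 in the AdGFP sphere, a change of -2.82 ± 0.47 (limma adjusted p = 0.00206). Ier2 (-2.62 ± 0.22), Egr1 (-2.35 ± 0.30) and Jun (-2.23 ± 0.16) fell, and the chaperone Hsph1 rose by 0.85 ± 0.18. Rises numbered 1 without graft 4, graft 6, AdCre sphere 1 or AdCre sphere 2.

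Genes of microglia and macrophages, the immune cells of the brain, rose for 19 of 29 members (65.5%, against 4.30% of named genes) and fell for 1. The median was 1.62, with 19 rises after quantile normalization and 18 against AdCre spheres alone. The complement subunit C1qb read 9.15 in graft 4 and no more than 8.09 in grafts 5 and 6, against 4.56 and 3.95 in the AdCre spheres and 4.74 in the AdGFP sphere. Csf1r, the receptor that microglia need to survive, read 7.98, 6.73 and 6.93 in the grafts, against 4.87 and 5.04 in the AdCre spheres and 4.92 in the AdGFP sphere, a change of 2.27 ± 0.34 (limma adjusted p = 0.00129). For both, graft 4 was highest and every graft exceeded every sphere. Laptm5 (3.38 ± 0.34), Cd53 (3.31 ± 0.46), C1qa (3.12 ± 0.53), C1qc (3.03 ± 0.39), Cx3cr1 (1.98 ± 0.33) and Aif1 (0.95 ± 0.22) rose. Other members, such as P2ry12 (0.46 ± 0.22), Tmem119 (0.39 ± 0.23), Siglech (0.20 ± 0.27) and Trem2 (0.40 ± 0.26), were not called. These 4 read between 4.43 and 6.33 in the grafts. Lgmn, a lysosomal protease found in many cells, was the 1 fall, by 0.80 ± 0.27, a call kept without graft 4 and lost without any other array (adjusted p = 0.0607 to 0.148). The list's median level was 6.80, 5.84 and 5.93 in grafts 4, 5 and 6, against 4.74 and 4.59 in the AdCre spheres and 4.52 in the AdGFP sphere, and was 7.76 in the injected oligo-astrocytoma.

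Antigen presentation on MHC class II, a function of activated myeloid cells, rose for 3 of 6 measured genes, where 4.30% of named genes did. The counts were 3 after quantile normalization (7.99% of named genes rose) and 3 and 1 against AdCre spheres alone (3.12% and 26.8%). The list holds 11 genes, of which only these 6 were measured, so its share is coarse. Cd74, the invariant chain, read 8.98, 6.92 and 6.65 in the grafts, against 4.61 and 4.40 in the AdCre spheres and 4.57 in the AdGFP sphere, a change of 2.99 ± 0.66. H2-Aa read 8.97, 6.47 and 6.33 in the grafts, against 4.53 and 4.14 in the AdCre spheres and 4.43 in the AdGFP sphere, and its adjusted p of 0.0188 was 0.0556 without AdCre sphere 2. Graft 4 stood clear above the other grafts in both. Of 17 complement and coagulation genes, 7 rose and 1 fell (5 rises after quantile normalization, 5 against AdCre spheres alone), with a median of 0.34. The 7 rises were 41.2% of the list, against 4.30% of named genes. Beside the C1q genes they included the complement receptor C3ar1 (2.84 ± 0.24, with the spheres in the dim range) and the inhibitor Serping1 (2.74 ± 0.56), while the fall, Pros1 (-1.05 ± 0.35), kept its call without graft 4 and lost it without any other array (adjusted p = 0.0703 to 0.131). Of 18 lymphocyte genes, limma called 0 as deposited, with 2 lower at an unadjusted p under 0.05 and 1 lower after quantile normalization, and the median was -0.21. The T cell receptor subunit Cd3e read 5.23, 5.23 and 5.26 in the grafts, against 5.61 and 5.35 in the AdCre spheres and 5.24 in the AdGFP sphere.

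Vessel genes rose in the grafts. Of 28 endothelial genes 15 rose (53.6%, against 4.30% of named genes) and 3 fell, with a median of 0.74. The counts were 14 and 3 after quantile normalization and 11 and 3 against AdCre spheres alone. Cdh5, the junction cadherin of endothelium, read 6.80, 6.96 and 7.70 in the grafts, against 4.82 and 4.76 in the AdCre spheres and 4.60 in the AdGFP sphere, a change of 2.42 ± 0.26 (limma adjusted p = 0.000304). Kdr, the receptor for vascular endothelial growth factor, read 9.49 and 8.94 in grafts 5 and 6 and was lowest among the grafts in graft 4, against 5.86 and 5.47 in the AdCre spheres and 5.04 in the AdGFP sphere, a change of 3.02 ± 0.60. The grafts exceeded the spheres in both. Emcn (2.74 ± 0.32, with the spheres in the dim range), Cd34 (2.53 ± 0.25) and Pecam1 (adjusted p = 0.000931) rose, and Cldn5 rose by 1.21 ± 0.34, with the call lost without graft 4, graft 6, AdCre sphere 1 or the AdGFP sphere (adjusted p = 0.0523 to 0.0685). The 3 falls were Slc2a1, a glucose transporter that responds to low oxygen (-2.61 ± 0.39), Plvap (-1.80 ± 0.34) and Bsg (-1.53 ± 0.20), of which Bsg is widely made outside vessels.

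Of 17 mural cell genes, 5 rose (29.4%, against 4.30% of named genes), among them Rgs5 of pericytes (2.17 ± 0.28), and 1 fell. The median was 0.43, with counts of 5 and 1 after quantile normalization and 4 and 2 against AdCre spheres alone. Vtn read 7.55, 8.47 and 10.82 in the grafts, against 5.66 and 5.51 in the AdCre spheres and 5.32 in the AdGFP sphere. Genes of fibroblasts and meninges rose for 9 of 23 (39.1%, against 4.30% of named genes), with a median of 1.31. There were 5 rises against AdCre spheres alone, 5 without graft 6, and 8 after quantile normalization. The list includes Pdgfra, which such cells also make. Dcn, the matrix proteoglycan decorin, read 8.98, 8.77 and 10.95 in the grafts, against 4.30 and 4.53 in the AdCre spheres and 4.32 in the AdGFP sphere, a change of 5.19 ± 0.88 (limma adjusted p = 0.00228). Aldh1a2, a retinoic acid enzyme of meninges, read 5.49, 6.81 and 8.38 in the grafts, against 4.21 and 4.16 in the AdCre spheres and 4.17 in the AdGFP sphere. Graft 6 was highest in each of these genes. Igf2 (6.18, 7.27 and 10.25 in the grafts) and Ptgds (7.66, 7.35 and 10.06) were likewise highest in graft 6, and neither was called. The collagen Col1a1 gave 0.89 ± 0.45 (adjusted p = 0.152). Basement membrane genes rose for 4 of 14 (28.6%, against 4.30% of named genes), with 1 rise against AdCre spheres alone and 4 after quantile normalization. The rises were 1 without graft 6 or AdCre sphere 2, and 2 without AdCre sphere 1. The laminin Lama4 (2.15 ± 0.51) was called in all 6 fits that left out 1 array. Red blood cell genes had 1 rise, Alas2 (0.60 ± 0.14), and 1 fall, Klf1 (-0.82 ± 0.19), in 5 measured.

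Host cells within dissected tumours are one place where such genes are made. The labels do not allow host and graft RNA to be separated, for these lists or for the myelin, other glial and neuronal lists. The lymphocyte list was at a median level of 4.61, 4.52 and 4.70 in the grafts, against 4.55 to 5.00 in the spheres. The microglia list differed between grafts in step with the myelin list, both highest in graft 4, and the fibroblast list was highest in graft 6 at 8.38, against 7.07 and 6.81 in grafts 4 and 5. The part of these cells in the other changes reported here was not tested.

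Genes of the hypoxia response and glycolysis fell for 21 of 31 members (67.7%, against 30.3% of named genes), with a median of -1.55. Falls numbered 14 after quantile normalization, with a median of -1.18, and 19 against AdCre spheres alone. In low oxygen, hypoxia-inducible factors bind a short motif near their target genes and raise glucose transporters, glycolytic enzymes and angiogenic factors. Slc2a3, a glucose transporter, read at most 8.14 in the grafts, with graft 4 lowest, against 10.62 and 11.11 in the AdCre spheres and 10.13 in the AdGFP sphere, a change of -2.84 ± 0.34 (limma adjusted p = 0.000535). Ddit4, an inhibitor of mTOR induced by stress and low oxygen, read 7.44, 7.41 and 7.69 in the grafts, against 10.36 and 10.43 in the AdCre spheres and 10.35 in the AdGFP sphere, a change of -2.87 ± 0.20. Groups were narrow and far apart in both. Ero1a, an oxidase of the endoplasmic reticulum, read 7.28, 7.88 and 7.61 in the grafts, against 10.01 and 11.06 in the AdCre spheres and 9.74 in the AdGFP sphere. Vegfa, the growth factor for vessels, read 8.99, 9.36 and 9.21 in the grafts, against 10.79 and 11.09 in the AdCre spheres and 10.47 in the AdGFP sphere, a change of -1.60 ± 0.35, while its receptor Kdr was higher in the grafts. Every sphere exceeded every graft in both genes.

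The glycolytic enzymes Tpi1 (-2.03 ± 0.31), Hk1 (-1.92 ± 0.21) and Aldoa (-1.55 ± 0.28) fell, as did the glycogen synthase Gys1 (-2.26 ± 0.44) and the hormone Stc2 (-2.15 ± 0.39). Several others were less firm. Pdk1, which keeps pyruvate out of mitochondria, was called as deposited (adjusted p = 0.0268) but in no fit that left out an array, with adjusted p from 0.0515 without graft 5 to 0.0747 without graft 6. Car9, a carbonic anhydrase often used as a hypoxia marker, read 7.78 in AdCre sphere 2 but 5.53 in AdCre sphere 1, and its change of -1.40 ± 0.60 was not called (adjusted p = 0.0989). Egln3 (-2.04 ± 1.02), Pfkfb3 (-1.71 ± 0.70), Hk2 (-1.61 ± 0.64) and Bnip3 (adjusted p = 0.0565) were not called either. Their groups did not overlap, which held for 6678 of the 14807 named genes in the direction of a fall.

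The 3 hypoxia genes below are the largest falls whose promoters hold a core hypoxia motif, ACGTG or GCGTG on either strand, and are shown so that its place before the start can be seen. Each line gives 120 bases upstream of the start, from RefSeq promoters of GRCm38.p6, 5′ to 3′ on the gene's strand. Motif matches are in capitals (CACGT and CACGC are the same letters read from the other strand). The lines stop short of the start. They run from 149 to 30 bases before it for Adm, 210 to 91 for Ddit4 and 158 to 39 for Ero1a.
Adm, chr7:110627508-110627627, plus strand: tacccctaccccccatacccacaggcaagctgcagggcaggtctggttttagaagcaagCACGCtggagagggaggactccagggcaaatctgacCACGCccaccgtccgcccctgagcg
Ddit4, chr10:59951861-59951980, minus strand: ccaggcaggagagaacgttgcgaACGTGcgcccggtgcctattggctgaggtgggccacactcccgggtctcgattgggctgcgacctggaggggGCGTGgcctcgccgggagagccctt
Ero1a, chr14:45318611-45318730, minus strand: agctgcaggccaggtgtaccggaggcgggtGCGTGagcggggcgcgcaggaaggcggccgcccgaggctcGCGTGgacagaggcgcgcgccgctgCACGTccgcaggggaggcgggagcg
The stretches hold 2, 2 and 3 matches. In the 250 bases before the start, 25 of the 28 members with a promoter in the table had a match, and so did 52.9% of the 11855 array genes matched to it and 38.6% of all 32851 promoters. The 17 of 20 matched members that fell and held it are no larger a share than the members as a whole. A match of 5 letters is frequent in promoters rich in G and C and is a description of the sequence.

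Sterol synthesis had the highest share of falls among the lists. Of 20 measured members 18 fell (90.0%, against 30.3% of named genes), with a median of -2.02. The counts were 18 against AdCre spheres alone and 17 and 1 after quantile normalization, with a median of -1.54. The enzymes of this pathway turn acetyl-CoA through mevalonate and squalene into cholesterol, and are controlled together by the transcription factor Srebf2. Hmgcs1, which makes the HMG-CoA that enters the pathway, read 8.13, 8.34 and 8.09 in the grafts, against 11.16 and 11.25 in the AdCre spheres and 11.05 in the AdGFP sphere. Its change was -2.97 ± 0.31 (limma adjusted p = 0.000305). Lss, which closes the sterol rings, read 7.03, 6.95 and 6.69 in the grafts, against 9.58 and 9.57 in the AdCre spheres and 9.12 in the AdGFP sphere, a change of -2.53 ± 0.18. The gap between groups exceeded the spread within them several times over in both. Insig1, which holds the pathway in check and is itself a Srebf2 target, read 8.52, 8.50 and 8.53 in the grafts, against 11.30 and 11.60 in the AdCre spheres and 11.04 in the AdGFP sphere.

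The intermediate enzymes Mvd (-2.79 ± 0.25), Cyp51 (-2.64 ± 0.31), Msmo1 (-2.63 ± 0.30), Fdps (-2.41 ± 0.36) and Fdft1 (-2.26 ± 0.23) fell, as did the sterol carrier Stard4 (-3.33 ± 0.28) and the last enzyme, Dhcr7 (-1.96 ± 0.17). Srebf2 fell by 1.33 ± 0.31. Sc5d fell by 2.05 ± 0.54, with an adjusted p of 0.0545 without AdCre sphere 2. Ggps1, on the branch to protein prenylation, gave 0.09 ± 0.22, and was the 1 rise after quantile normalization (0.61, adjusted p = 0.044). Lbr, a nuclear envelope protein with sterol reductase activity, gave -0.47 ± 0.26.

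**Figure D5:**
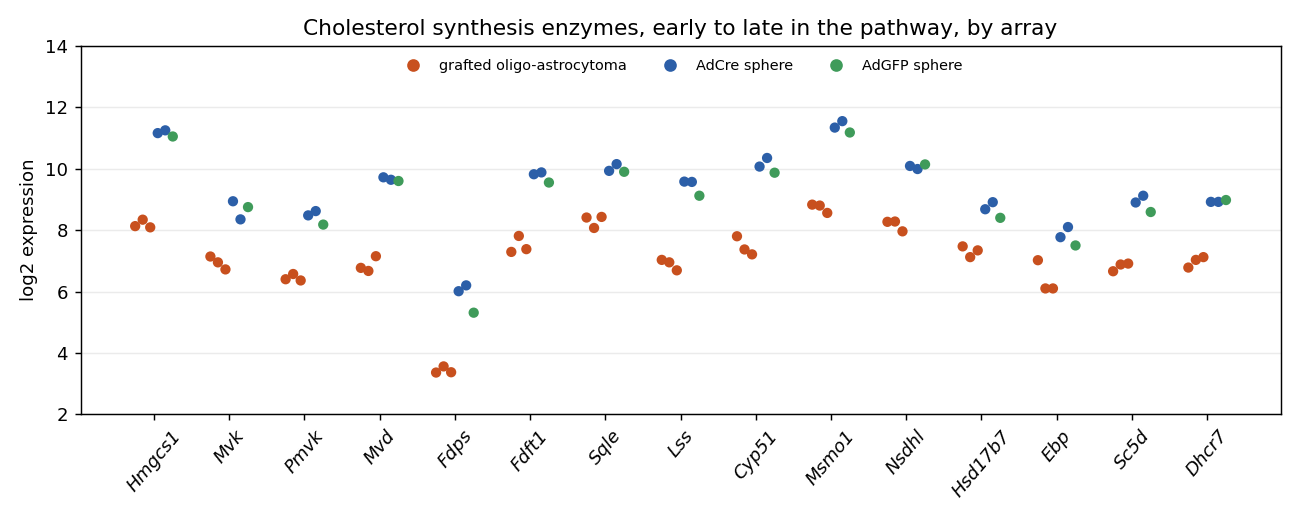
Log2 expression of 15 cholesterol synthesis enzymes on each array, in the order of the pathway, with grafts 4, 5 and 6 at the left of each gene and the spheres at the right. For each enzyme the 3 grafts lie below the 3 spheres, as for Hmgcs1 at 8.09 to 8.34 in grafts and 11.05 to 11.25 in spheres.

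One promoter of the sterol list held the sterol regulatory element in the form TCACNCCAC on either strand, that of Hmgcs1, and it is shown to place those letters before the start. The 120 bases are from the same RefSeq promoters and run from 228 to 109 bases before the start. The match, in capitals, begins 137 bases before it.
Hmgcs1, chr13:119690123-119690242, plus strand: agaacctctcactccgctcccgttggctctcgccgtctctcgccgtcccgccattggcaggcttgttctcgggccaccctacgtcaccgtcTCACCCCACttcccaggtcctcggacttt
Of 16 matched members, this was the 1 with the letters in its 250 bases, against 1.22% of 11855 matched array genes and 1.05% of all promoters. No match in the other members says only that these letters are not in that window.

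Fatty acid synthesis, governed by the related factor Srebf1, fell for 11 of 15 members (73.3%, against 30.3% of named genes), with a median of -1.17. Falls numbered 7 after quantile normalization and 11 against AdCre spheres alone. Scd1, which desaturates fatty acids, read 7.59, 5.38 and 7.41 in the grafts, against 11.23 and 11.11 in the AdCre spheres and 10.58 in the AdGFP sphere. Thrsp, a lipogenic regulator, read 5.15, 5.22 and 5.12 in the grafts, against 8.27 and 8.88 in the AdCre spheres and 9.32 in the AdGFP sphere, a change of -3.66 ± 0.25 (limma adjusted p = 7.08e-05). Each was lower in every graft. Lpin1 (-1.98 ± 0.16), Elovl5 (-1.89 ± 0.29), Scd2 (-1.84 ± 0.24), Fads1 (-1.78 ± 0.28) and Fads2 (-1.64 ± 0.26), which elongate or desaturate fatty acids or store them, fell. The core synthase Fasn moved less, by -0.66 ± 0.19, a call lost without graft 4, graft 5, AdCre sphere 1 or the AdGFP sphere (adjusted p = 0.0629 to 0.0774) and after quantile normalization (adjusted p = 0.416), and Acaca gave -0.26 ± 0.20 (adjusted p = 0.346).

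Genes of the amino acid stress response driven by Atf4 fell for 16 of 24 members (66.7%, against 30.3% of named genes), with a median of -1.11. Falls numbered 10 after quantile normalization and 18 against AdCre spheres alone. Sesn2, a stress-induced brake on mTOR, read 5.67, 6.06 and 6.03 in the grafts, against 8.26 and 7.64 in the AdCre spheres and 8.53 in the AdGFP sphere, a change of -2.22 ± 0.30 (limma adjusted p = 0.000849). Ddit3, the stress factor CHOP, changed by -1.43 ± 0.28 and Ppp1r15a by -1.68 ± 0.21. Serine, glycine and one-carbon genes fell for 8 of 17 (47.1%, against 30.3% of named genes), with a median of -0.82. After quantile normalization 6 fell and 1 rose, where 17.7% and 7.99% of named genes did, and 8 fell against AdCre spheres alone. Pipox, a peroxisomal enzyme that oxidises sarcosine and pipecolate, read 5.02, 5.70 and 5.18 in the grafts, against 9.18 and 9.12 in the AdCre spheres and 8.93 in the AdGFP sphere, a change of -3.78 ± 0.38. Sardh, an enzyme of sarcosine breakdown, changed by -2.92 ± 0.31 and Mthfd1, of folate metabolism, by -1.76 ± 0.28. Each of these genes separated the groups completely.

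Oxidative stress genes under Nrf2 fell for 14 of 20 members (70.0%, against 30.3% of named genes), with a median of -1.30. Falls numbered 13 after quantile normalization and 15 against AdCre spheres alone. Hmox1, which breaks down haem, read 6.28, 7.14 and 6.40 in the grafts, against 9.01 and 9.39 in the AdCre spheres and 8.95 in the AdGFP sphere, a change of -2.51 ± 0.57 (limma adjusted p = 0.00879). The metal binders Mt1, Mt2 and Mt3 changed by -2.01 ± 0.25, -2.55 ± 0.26 and -2.12 ± 0.29, and the glutathione transferases Gsta4 and Gstm1 by -2.77 ± 0.47 and -2.04 ± 0.18. Of these, Mt3 and Gstm1 are also abundant in astrocytes. Of 30 lysosome genes, 20 fell (66.7%, against 30.3% of named genes) and 1, Ctss, rose, with a median of -0.84. After quantile normalization 10 fell, where 17.7% of named genes did. The falls were 13 without graft 5, 12 without graft 6, 13 without AdCre sphere 1 and 11 without AdCre sphere 2, where the rises were 2. The hydrolases Glb1 (-2.02 ± 0.15), Neu1 (-1.96 ± 0.28) and Asah1 (-1.95 ± 0.24) fell in each of these fits. Microglia genes thus lay higher in the grafts beside lower lysosomal hydrolases, which all cells carry.

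Genes of cell division depended on the scaling. Mitosis genes fell for 11 of 36 members, which is 30.6% beside the 30.3% of all named genes and so no result about the list, with a median of -0.63, and 2 fell after quantile normalization, where the median was -0.13 (9 against AdCre spheres alone). Without 1 array the falls numbered 7 (without graft 4, graft 6 or AdCre sphere 1), 20 (without graft 5) or 5 (without AdCre sphere 2). Mki67, the proliferation antigen, read 8.61 in grafts 4 and 6, with graft 5 higher, against 8.33 and 8.80 in the AdCre spheres and 8.78 in the AdGFP sphere, a change of 0.27 ± 0.27 (limma adjusted p = 0.48). Top2a, which untangles DNA, read 10.07, 10.22 and 9.36 in the grafts, against 9.90 and 10.24 in the AdCre spheres and 9.72 in the AdGFP sphere. The groups overlapped for both. Aurkb (-1.25 ± 0.22) and Spc24 (-1.79 ± 0.24) fell, also after quantile normalization. Graft 5 had the highest median over the list, 8.40, against 7.72 and 7.46 in grafts 4 and 6 and 8.49 to 8.87 in the spheres. DNA replication genes fell for 15 of 38 (39.5%, where 30.3% of named genes did), with a median of -0.53, and for 8 without AdCre sphere 2. After quantile normalization 5 fell and 3 rose, where 17.7% and 7.99% of named genes did, with a median of -0.02. Tk1, thymidine kinase, fell by 1.73 ± 0.28 and the histone messenger binder Slbp fell also after quantile normalization.

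Rb1 was the targeted gene that could be read, and Trp53 was not analysed here. It read 6.36, 7.24 and 6.63 in the grafts, against 6.65 and 6.34 in the AdCre spheres and 8.49 in the AdGFP sphere. The AdGFP array, whose alleles were not exposed to Cre, stood above the others, and the grafts overlapped the AdCre spheres. The change was -0.42 ± 0.49 against all spheres (limma adjusted p = 0.546) and 0.25 ± 0.27 against AdCre spheres alone (adjusted p = 0.516), so its direction turned with the AdGFP array. Probes of this cluster in exons that Cre leaves in place would still read them, so the value checks the deletion only in part. Targets of p53 fell for 12 of 31 members (38.7%, where 30.3% of named genes did), with a median of -0.78 (6 after quantile normalization, 12 against AdCre spheres alone). Cdkn1a, the cell cycle inhibitor p21, read 6.33, 5.56 and 5.19 in the grafts, against 8.02 and 8.63 in the AdCre spheres and 10.36 in the AdGFP sphere, a change of -3.31 ± 0.54 against all spheres and -2.63 against AdCre spheres alone. Ccng1 read 9.08, 9.03 and 8.55 in the grafts, against 10.15 and 9.85 in the AdCre spheres and 11.91 in the AdGFP sphere, with an adjusted p of 0.0672 without graft 6. In both genes the AdGFP sphere was the highest array and the grafts the lowest. The difference between AdCre and AdGFP spheres was not tested here.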

How the data were processed

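RNA was measured on 1-colour Affymetrix mouse exon arrays. The deposited values are log2 expression, made with Partek and RMA on mm8, per the submitters' processing notes; the sources used here do not state versions or how probe sets were combined. They were used as deposited, with no filter. The platform table gave 14939 transcript clusters a single gene, left 7310 unnamed and gave 989 more than 1; where a gene had more than 1 cluster (131 genes), the one with the highest mean was kept. Models were fitted with limma 3.58.1 (lmFit, eBayes; R 4.3.3) to all 10 arrays in 4 groups, with AdCre and AdGFP spheres as 1 (6 residual degrees of freedom), or in 5 groups for AdCre spheres alone (5). Tests were two-sided, with Benjamini-Hochberg adjustment over 23238 transcript clusters and a threshold of 0.05.

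Named genes were the 12 largest changes per direction among called genes without overlap that also passed against AdCre spheres and after quantile normalization, up to 5 called members per direction of each list, and Pdgfra, Ctss, Adm, Egfr and Rb1. Other list members, called or not, were chosen for naming after their values were seen. The 35 lists hold 933 entries, of which 781 were measured. The comparison and the lists were chosen with earlier results of these data known. Alternatives were quantile normalization, median centring, the compared arrays only, filters or floors for dim values, trended robust variance, AdCre and AdGFP as separate groups, and leaving out each array. Promoters were RefSeq GRCm38.p6 and differ in build from the arrays. On simulated data, 200 genes were changed of 23238 tested. Of 2-, 4- and 8-fold changes, 43.3%, 64.2% and 90.9% were recovered against all spheres, and 22.4%, 56.7% and 83.3% against AdCre spheres alone. There were 7 false calls in each. The simulation gave all groups the same spread and changed far fewer genes than were called in the data (10.6% higher and 24.3% lower). Its rates therefore need not hold for this comparison.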

Additional observations from a re-analysis of the deposited data

How the results depend on the processing

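Against all spheres, 2467 transcript clusters (10.6%) were higher and 5658 (24.3%) lower, with 10490 at an unadjusted p under 0.05, and against AdCre spheres alone 2210 and 5024. Quantile normalization gave 2987 higher and 3316 lower, or 2492 and 2505 against AdCre spheres alone, so rises and falls became nearly equal in number. Raising dim values to each array's lower quartile gave 6390 and 5902 higher, because that floor itself lies at 4.38 to 4.43 in grafts and at 4.22 to 4.28 in spheres. Leaving out 1 array gave 1805 to 2210 higher and 4243 to 5024 lower against all spheres, and 1178 to 1931 and 2419 to 4184 against AdCre spheres alone. The lowest of the last 2 ranges came without AdCre sphere 1 (1178 and 2419), and 1518 and 2655 without AdCre sphere 2; the lone AdCre array was then assumed to vary like the other groups. Of the 181 single-gene results, 1 reversed, Rb1, to 0.25 against AdCre spheres alone, the same result as without the AdGFP sphere. It ranged from -0.82 to 0.25 over the fits without 1 array, and was not called under any of these settings. Of the same results, called or not, 160 stayed on their side of the threshold after quantile normalization and 21 lost their call. The 24 largest changes among them were named only if they passed that setting, so their outcome was fixed in advance. Most others were the largest called changes of a list. Over all named genes, 87.3% of the rises and 53.6% of the falls kept their call. Member counts of lists against AdCre spheres alone and without each array were chosen after seeing the data. No paired analysis was possible because the grafts (4, 5 and 6) and the spheres (1, 2 and 1) share no replicate number.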

Other observations

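Several lists had, as deposited, shares of falls near or under the 30.3% of all named genes. Those counts are no result about the list, and single members are given. Of 25 genes of the Notch pathway, which keeps neural progenitors undifferentiated, 9 fell, with a median of -0.61 (6 falls and 2 rises after quantile normalization). Beside Lfng, the transcriptional effectors Hes1 (-1.83 ± 0.26) and Hey1 (-1.55 ± 0.20) and the feedback inhibitor Nrarp (-1.79 ± 0.34) fell. Of 28 BMP and TGF-beta genes, 2 rose (7.14%, where 4.30% of named genes did) and 7 fell (where 30.3% did), with a median of -0.03. Bmp4 read 8.09, 9.58 and 8.50 in the grafts, against 6.79 and 5.20 in the AdCre spheres and 4.16 in the AdGFP sphere, a rise of 3.34 ± 0.69 (limma adjusted p = 0.00561), while Bmp7 (-2.54 ± 0.37), the BMP antagonist Chrdl1 (-3.83 ± 0.25) and the receptor Bmpr1b (-2.04 ± 0.38) fell. Of 16 insulin-like growth factor genes, 2 rose and 3 fell (18.8%), with Igfbp7 higher by 1.36 ± 0.27 and Igfbp4 lower by a change of -2.37 ± 0.28. Of 17 retinoid and thyroid hormone genes, 4 rose and 4 fell (23.5% each); the rises numbered 1 without graft 4, AdCre sphere 2 or the AdGFP sphere and 2 without graft 6 or AdCre sphere 1. Dio2, which activates thyroid hormone in astrocytes, changed by -3.45 ± 0.48.

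Of 25 neuronal progenitor genes 6 fell as deposited (where 30.3% of named genes did, with a median of -0.34 beside -0.32 over named genes). After quantile normalization 9 fell and 1 rose, where 17.7% and 7.99% of named genes did. The GABA enzyme Gad1 fell (-3.29 ± 0.31), and read 5.48, 5.61 and 6.39 in the grafts, against 9.05 and 9.31 in the AdCre spheres. Dcx, of migrating neuroblasts, read 5.57, 7.41 and 9.80 in the grafts, against 8.03, 6.82 and 6.43 in the spheres, and was not called. Of 22 mature neuron genes 9 fell (40.9%, above the 30.3% of named genes), among them Kcnc1 (-2.78 ± 0.36) and Syn2 (-1.85 ± 0.18). After quantile normalization 10 fell, where 17.7% of named genes did. Syt1 (6.29, 8.24 and 5.92) and Snap25 (6.37, 7.83 and 4.98) were highest in graft 5 and were not called. Of 13 choroid plexus and ependyma genes 2 fell (15.4%), with Ttr at 4.90 to 5.14 in grafts and 4.80 to 5.06 in spheres.

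Of 20 interferon response and MHC class I genes 5 fell (where 30.3% of named genes did), and 9 against AdCre spheres alone (where 26.8% did), with medians of -0.87 and -1.23. The falls were 2 without graft 4 or graft 5, and 1 without graft 6, AdCre sphere 1 or AdCre sphere 2. The chemokine Cxcl10 read 6.12, 5.25 and 5.04 in the grafts, against 10.06 in AdCre sphere 1 and 6.01 in the AdGFP sphere, with AdCre sphere 2 nearer to the first. The list's median level was 6.56, 5.69 and 5.64 in the grafts, 7.52 and 7.16 in the AdCre spheres and 6.40 in the AdGFP sphere.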
